A study of Mus musculus with 28 samples.

Results

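The Zfp genes are mouse genes whose symbol is Zfp followed by a number, short for zinc finger protein. The array annotation named exactly 1 such gene for 254 of its 22690 probe sets, which made 173 genes of the 12393 named in all. RefSeq lists 171 of the 173 as protein coding, 1 as a pseudogene and 1 as a long noncoding RNA. A gene was tested in an experiment when it exceeded the median of all values on 3 or more arrays, and it was represented by its brightest probe set that did so. That left 107 Zfp genes among 8422 genes in sorted cells and 90 among 7235 in transduced cells. In all, 111 were tested in either experiment, 86 in both, and 62 in neither.

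A zinc finger is a short protein fold held by a zinc ion. Most Zfp proteins carry rows of C2H2 fingers that bind DNA, and in mammals many of these also carry a KRAB domain, which recruits the corepressor TRIM28 and the methyltransferase SETDB1 to silence retroelements and some genes. A few members are unlike these: Zfp36, Zfp36l1 and Zfp36l2 have CCCH fingers, bind AU-rich elements in messenger RNA and promote its decay, and others act in splicing, ribosome quality control or chromosome segregation. The shared symbol therefore marks a protein fold and not a pathway.

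RNA came from sorted mouse bone marrow cells, about 10000 per sample by the labels, in 2 experiments that the series' design text calls noncomparable. One used transduced progenitors of granulocytes and macrophages (GMP) that expressed either green fluorescent protein (GFP, 3 arrays) or MLL-AF9 (3 arrays), a fusion protein found in acute leukaemia. In the other, lineage-negative cells were taken as Sca+ Kit+ cells (HSC, 5 arrays), in which stem cells of the blood are enriched, and as 3 Sca- Kit+ progenitor fractions: common myeloid progenitors (CMP, FCR+ CD34low, 4 arrays), GMP (FCR+ CD34high, 4 arrays) and megakaryocyte-erythroid progenitors (MEP, FCR- CD34-, 3 arrays). Leukaemic cells with the markers Sca- Kit+ FCR+ CD34+ (L-GMP, 6 arrays) were sorted alongside. The labels give no strain, age, vector, promoter or clone, and do not say that replicates were separate animals, so p-values measure the spread between arrays, which may be technical.

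Values are scaled intensities on the log2 scale, called levels here. In sorted cells they end at a floor of 5.27, the 25th percentile of the experiment, and the median is 6.75. Levels of different genes come from different probes and are not compared. The 5 tested HSC markers averaged between 8.76 and 9.0 on HSC arrays and between 6.05 and 6.39 on GMP arrays. They averaged 7.79 in CMP and 7.27 in MEP. Procr, Hlf and Meis1 were highest in HSC, but Slamf1 averaged 6.31 in HSC against 7.50 in MEP, and Tek 7.36 against 7.43 in CMP. The 6 MEP markers averaged between 10.28 and 10.67 on MEP arrays and 8.71 in CMP. Gata1, Klf1, Epor and Car1 were highest in MEP, but Itga2b and Pf4 averaged 11.01 and 10.94 in CMP against 10.62 and 10.90 in MEP. Fcgr3, an Fc receptor gene of the FCR gate, averaged 5.47 in CMP, close to the floor, against 9.51 in GMP. Cd34 averaged 9.57 in CMP and 8.94 in GMP, so Fcgr3 and Cd34 go against the labels of these sorts. Fcgr2b, another Fc receptor gene, averaged 8.58 in CMP and 10.17 in GMP, with 7.45 in HSC and 6.95 in MEP. The 4 tested of 5 macrophage markers (C1qa was not tested) averaged between 8.68 and 9.48 on L-GMP arrays and between 7.46 and 7.82 on GMP arrays. Immediate early genes, which cells switch on within minutes of a stimulus, were low on the first array of HSC, CMP and GMP: the mean of 17 such genes was 8.28, 7.10 and 6.92 there against at least 9.84, 9.69 and 8.58 on the other arrays of those groups, and it lay between 6.90 and 7.89 in L-GMP. The log2 ratio of 3' to 5' control signal averaged 2.85 in L-GMP and between 2.92 and 3.10 in the normal sorts. These values move with several comparisons, and their part in the results was not tested except where a value is given. In bulk samples, fewer cells of a type and less RNA per cell cannot be told apart.

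Promoter letters are given as a description, with no test. RefSeq windows from 250 bases before to 50 after a gene start (build GRCm38.p6) were found for 139 of the 173 genes, 168 windows in all. The GC box GGGCGG, on either strand, stood in 50.6% of these windows and in 35.7% of the 32851 windows of all RefSeq genes, a wider set than the genes on the array. CCAAT stood in 48.2% against 37.4%, the ETS site CCGGAAG in 19.0% against 8.86%, and the NRF1 site in 3.57% against 0.971%. The TATA box TATAAA was in 7.74% against 13.6%, and the median number of CpG was 15 against 7. The EGR site GCGGGGGCG was in 4.17% against 2.91%, the E-box CACGTG in 6.55% against 7.15%, the YY1 site in 1.79% against 0.852% and the AP-1 site TGACTCA in 4.17% against 5.20%. A match is a description of letters and not a bound site.

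Promoters of 5 members that the results turn on are printed here, with matches to those motifs on either strand in capitals. Zfp36 and Zfp36l1 are printed to set the windows of related CCCH genes side by side: Zfp36 (chr7:28379179-28379478, minus strand) holds an EGR site that begins 105 bases before the start, an ETS site at 92 and a GC box at 63, and Zfp36l1 (chr12:80112964-80113263, minus strand) holds none of these but a TATA box at 29 that shares bases with a reversed CCAAT box. Zfp326 (chr5:105876318-105876617, plus strand) was lower in L-GMP and its window has 4 GC boxes and a CCAAT box. Zfp110 (chr7:12834511-12834810, plus strand) and Zfp207 (chr11:80383029-80383328, plus strand) were higher in L-GMP than in GMP. The Zfp110 window has a CCAAT box and an ETS site, and the Zfp207 window has a CCAAT box, a YY1 site at 73 and an E-box at 26.
Zfp36: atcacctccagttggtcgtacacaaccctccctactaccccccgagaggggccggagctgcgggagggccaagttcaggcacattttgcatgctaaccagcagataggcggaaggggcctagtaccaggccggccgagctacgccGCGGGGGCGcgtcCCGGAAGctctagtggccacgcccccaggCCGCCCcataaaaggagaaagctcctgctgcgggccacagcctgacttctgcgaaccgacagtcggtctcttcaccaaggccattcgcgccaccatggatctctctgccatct
Zfp36l1: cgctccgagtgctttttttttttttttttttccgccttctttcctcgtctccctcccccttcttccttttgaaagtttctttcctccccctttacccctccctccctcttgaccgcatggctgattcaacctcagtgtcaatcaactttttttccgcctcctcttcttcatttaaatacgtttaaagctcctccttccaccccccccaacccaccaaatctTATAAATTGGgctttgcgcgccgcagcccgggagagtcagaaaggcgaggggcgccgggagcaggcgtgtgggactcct
Zfp326: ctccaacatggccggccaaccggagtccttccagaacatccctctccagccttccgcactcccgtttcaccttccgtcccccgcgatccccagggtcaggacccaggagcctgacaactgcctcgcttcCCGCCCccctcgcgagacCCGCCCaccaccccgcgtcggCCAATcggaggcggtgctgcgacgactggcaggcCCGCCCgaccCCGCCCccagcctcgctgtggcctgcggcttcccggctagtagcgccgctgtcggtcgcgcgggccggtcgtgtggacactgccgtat
Zfp110: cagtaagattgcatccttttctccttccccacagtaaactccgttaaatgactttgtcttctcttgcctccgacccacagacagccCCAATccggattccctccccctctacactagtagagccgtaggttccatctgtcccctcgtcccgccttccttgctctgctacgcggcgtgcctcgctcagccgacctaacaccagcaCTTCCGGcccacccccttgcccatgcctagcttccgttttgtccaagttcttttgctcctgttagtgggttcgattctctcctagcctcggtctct
Zfp207: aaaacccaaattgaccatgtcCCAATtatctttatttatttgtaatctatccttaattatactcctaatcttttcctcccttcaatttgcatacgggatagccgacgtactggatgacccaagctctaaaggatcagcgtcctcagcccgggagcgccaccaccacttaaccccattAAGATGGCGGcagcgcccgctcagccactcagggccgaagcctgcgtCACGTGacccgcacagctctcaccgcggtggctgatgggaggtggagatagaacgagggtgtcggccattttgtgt

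Across the normal sorts, many Zfp genes stood highest in HSC and lowest in GMP. Among the 4 normal sorts the highest mean was in HSC for 42 of the 107 members (39.3%, against 29.7% of all genes) and in CMP for 24 (22.4% against 9.21%). GMP had the highest mean for 12 (11.2% against 27.6%) and the lowest for 48 (44.9% against 32.9%). These shares are descriptions with no test. By the limma F-test, 36 members (33.6%) differed among the 4 sorts at an adjusted p under 0.05, against 46.7% of all genes tested.

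HSC against GMP gave the largest count among the normal sorts. Here 34 of 107 members were called (adjusted p under 0.05, limma), 27 higher and 7 lower in HSC, where 41.2% of all genes were called, 19.4% higher and 21.8% lower. The median member was 0.14 higher in HSC on the log2 scale, against 0.01 for all genes. HSC against MEP called 25 members, 18 higher and 7 lower, with a background of 32.9% (17.4% higher and 15.5% lower). HSC against CMP called 8, 5 higher and 3 lower, with a background of 13.4% (6.01% higher and 7.43% lower). With the deposited values unscaled, the calls were 25 higher and 2 lower against MEP and 6 higher and 2 lower against CMP, and the median of all genes in HSC against MEP moved from -0.03 to 0.11. The shares of all genes called in the unscaled fits are not given here.

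Among the committed progenitors, CMP stood above GMP for most members. CMP against GMP called 14 of 107, 10 higher and 4 lower in CMP, with a background of 16.8% (8.60% higher and 8.18% lower), and 83 members (77.6%) lay above 0 against 51.8% of all genes. The count was 7 without replicate 4 of GMP, 8 without replicate 1 of GMP or replicate 3 of CMP, and 9 without replicate 1 of CMP or replicate 3 of GMP. MEP against GMP called 22, 12 higher and 10 lower in MEP (background 27.5%, 11.9% higher and 15.6% lower), 14 without replicate 1 or 3 of GMP or replicate 2 or 3 of MEP, and unscaled values gave 5 higher and 12 lower. MEP against CMP called 11, 1 higher and 10 lower in MEP (background 17.1%, 6.19% higher and 10.9% lower), but 2 without replicate 3 of MEP and 6 without replicate 3 of CMP. The mean of the 107 members was 8.07, 7.93 and 7.76 on the MEP arrays, so replicate 3 was the lowest. Counts with an array left out or with unscaled values stand without the share of all genes called in the same fit. They do not set the members apart from other genes.

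Most Zfp genes called in leukaemic cells were lower there than in the normal sort. On the 6 arrays of L-GMP the 107 members averaged 7.70 to 7.82, below every HSC array (8.03 to 8.13) and every CMP array (7.98 to 8.07), and it overlapped GMP (7.74 to 7.95) and MEP. L-GMP against HSC called 49 members, 11 higher and 38 lower in L-GMP, where 47.2% of all genes were called, 23.4% higher and 23.8% lower. L-GMP against CMP called 45, 9 higher and 36 lower (background 39.9%, 18.4% higher and 21.5% lower). L-GMP against MEP called 37, 12 higher and 25 lower (background 45.2%, 22.3% higher and 22.9% lower), and L-GMP against GMP called 30, 7 higher and 23 lower (background 33.5%, 15.2% higher and 18.3% lower). The 4 comparisons share the L-GMP arrays, so they are not independent. In each the count of called members was close to or below the background, and the members called were mostly lower where those of all genes were split about evenly. The median member change was -0.24, -0.17, -0.11 and -0.01 against HSC, CMP, MEP and GMP.

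That lean to the lower side held without the first arrays of HSC, CMP and GMP, which have low immediate early genes. Then 10 members were higher and 36 lower against HSC (all genes 22.9% and 21.9%), 7 and 36 against CMP (16.6% and 19.3%), and 6 and 20 against GMP (13.7% and 17.6%). Quantile normalization, which left 108 members to test, gave 10 and 38 (24.2% and 23.6%), 8 and 37 (18.5% and 21.9%), and 8 and 24 (15.4% and 18.6%).

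**Figure D1:**
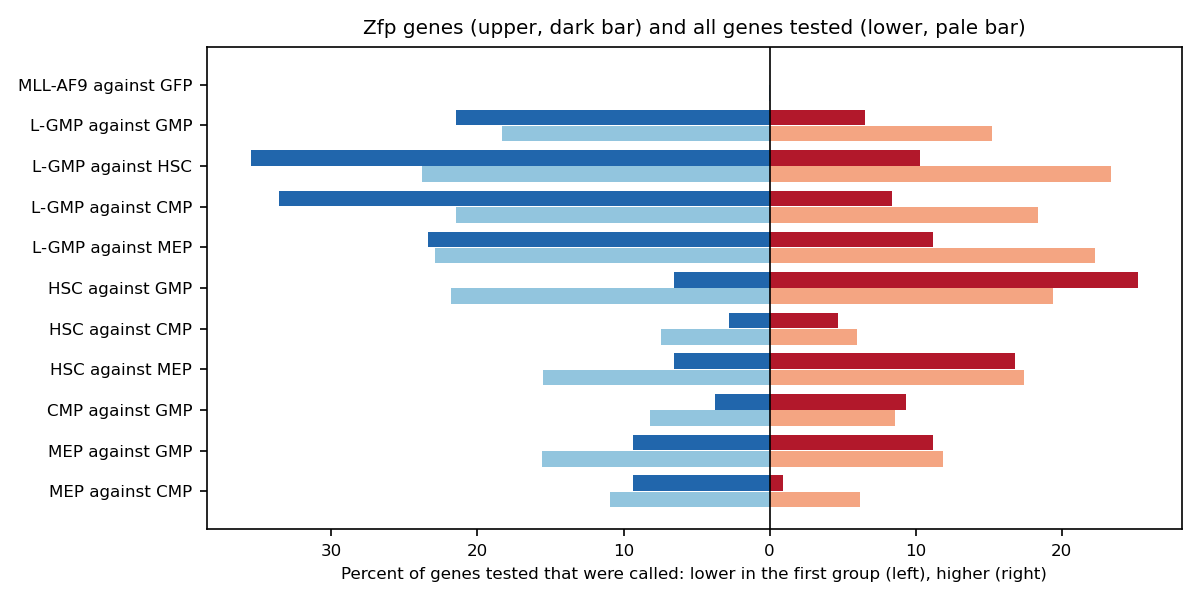
Percent of genes called by limma in each comparison, for Zfp genes (dark bars, 107 tested in sorted and 90 in transduced cells) and all genes tested (pale bars). Bars to the right are genes higher in the first group named and bars to the left are lower; in L-GMP against HSC the Zfp genes reach 35.5% lower and 10.3% higher, against 23.8% and 23.4% of all genes.

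Among the CCCH genes, Zfp36l1 had the largest change of any member in L-GMP against HSC, CMP and MEP at the floor used here. Changes to the floor are lower bounds, and over the alternative fits Zfp521 reached -4.24 against HSC where Zfp36l1 reached -3.59. Zfp36l1 was high in those 3 sorts, lower in GMP, and at the floor in leukaemic cells. Its levels were 7.91, 8.50, 8.23, 9.32 and 8.98 on the HSC arrays, 7.91, 8.39, 8.35 and 8.30 in CMP, and 8.90, 8.62 and 8.73 in MEP. GMP arrays stood at 5.72, 7.17, 6.43 and 6.05, and all 6 L-GMP arrays were at the floor of 5.27. No GMP array reached an HSC, CMP or MEP array, and no L-GMP array reached a GMP array. Zfp36l1 was 4.74-fold higher in HSC than in GMP (log2 change 2.25 ± 0.25 SE, adjusted p = 3.05e-07, limma) and 5.31-fold higher in MEP than in GMP (2.41 ± 0.28, adjusted p = 7.62e-07). L-GMP was at least 9.96-fold below HSC (adjusted p = 6.35e-11), at least 11.2-fold below MEP and at least 2.10-fold below GMP (adjusted p = 0.00138). With the floor at the 50th percentile the change from GMP was -0.11 and not called, since most GMP values then lie at the floor too.

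Zfp36l2 was steady and high in HSC and lower towards GMP and L-GMP. HSC arrays read 11.19, 11.26, 11.31, 11.30 and 11.31, and GMP arrays 9.81, 10.31, 10.11 and 9.72. L-GMP had a lowest value of 8.98, a median of 9.22 and a highest of 10.35, which was replicate 6 and overlapped GMP. HSC exceeded GMP 2.44-fold (log2 change 1.28 ± 0.22 SE, adjusted p = 8.21e-05, limma), and L-GMP fell by 1.92 ± 0.20 from HSC (adjusted p = 5.58e-08). The change from GMP to L-GMP was -0.64 ± 0.21 (adjusted p = 0.0243, limma) and was not called when replicate 2, 3 or 4 of GMP or replicate 1 or 4 of L-GMP was left out (-0.53 to -0.64). Of 2 further probe sets of the gene the 1 tested gave -0.43 there, also not called, and 1.19 for HSC against GMP.

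Zfp36, tristetraprolin, is itself an immediate early gene, and it was low on the same arrays as the other immediate early genes. HSC arrays read 8.48, 10.97, 10.95, 11.93 and 11.59, CMP arrays 6.23, 10.65, 10.63 and 10.24, and GMP arrays 6.22, 9.62, 9.24 and 9.10. In each of these groups the first array was the lowest. MEP stood at 9.58, 9.88 and 10.25, and L-GMP between 7.29 and 9.12 with a median of 7.85. HSC exceeded GMP by 2.24 ± 0.83 SE (adjusted p = 0.0359, limma), a call that was lost without replicate 1 of GMP (1.47) or without any of replicates 2 to 5 of HSC (1.95 to 2.20), and with the 3' to 5' ratio as a covariate (1.82). L-GMP lay below HSC by 2.68 ± 0.75 on the log2 scale (adjusted p = 0.00544, limma), and with the 3' to 5' ratio as a covariate the change was -2.10 and not called. Without the first arrays of HSC, CMP and GMP, L-GMP was lower than GMP (log2 change -1.21, adjusted p = 0.00912), CMP (-2.40) and MEP (-1.80), none of which was called with all arrays (-0.44, -1.33 and -1.80).

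**Figure D2:**
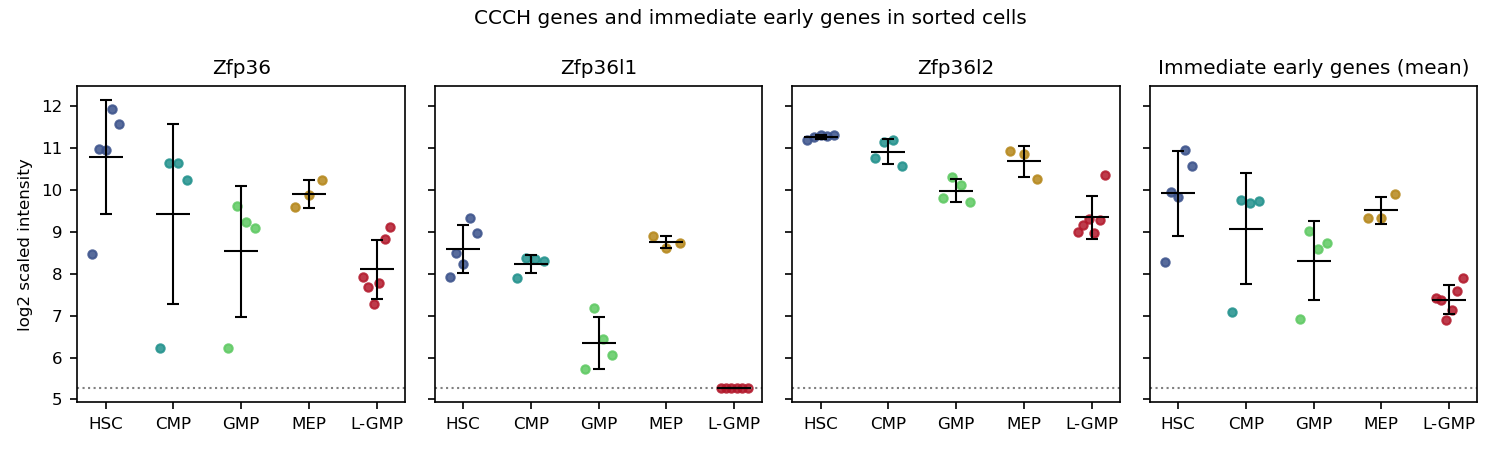
Log2 scaled intensity of Zfp36, Zfp36l1 and Zfp36l2, and the mean of 17 immediate early genes, on each of the 22 arrays of sorted cells. Points are arrays in order of replicate number, bars are the mean and SD, and the dotted line is the floor of 5.27, where all 6 L-GMP arrays of Zfp36l1 lie; Zfp36 and the immediate early mean are low on the first array of HSC, CMP and GMP.

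The CCCH proteins act with deadenylation and decapping factors, counted here as a list of mRNA decay partners. Of 14 tested, 1 was higher and 2 were lower in L-GMP against GMP (median 0.08), and 1 was higher and 2 were lower against HSC (median -0.10). Of the 17 immediate early genes tested, 15 were lower in L-GMP than in HSC and 2 were lower than in GMP. For both lists the background over all genes was 15.2% higher and 18.3% lower against GMP. Against HSC it was 23.4% higher and 23.8% lower. The lists were given no set test.

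Zfp521, a C2H2 factor of early progenitors that partners EBF1, marked the HSC and CMP end. HSC arrays read 8.52, 8.04, 8.0, 8.06 and 8.46, and CMP arrays 7.37, 6.82, 6.66 and 7.29. GMP was at the floor on 3 arrays and at 5.70 on the other, MEP read 5.90, 5.67 and 5.27, and L-GMP was at the floor on all 6. The HSC, CMP and MEP arrays formed separate steps. HSC exceeded CMP 2.27-fold (log2 change 1.18 ± 0.16 SE, adjusted p = 2.11e-05, limma), CMP exceeded GMP at least 3.15-fold (adjusted p = 2.56e-07) and HSC exceeded GMP at least 7.13-fold (adjusted p = 8.02e-12). With the floor at the 50th percentile, CMP against GMP was 0.31 and not called. L-GMP lay at least 7.69-fold below HSC (adjusted p = 2.11e-13), and between L-GMP and GMP both groups sat at or near the floor.

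Several less known C2H2 genes were also highest in HSC. Zfp982 read 10.23, 9.93, 9.87, 10.13 and 9.98 on HSC arrays, 9.19, 8.94, 8.82 and 8.87 in CMP, 8.03, 8.08, 7.81 and 7.86 in GMP, and 8.70, 8.31 and 8.08 in MEP. Each step from HSC to CMP to GMP was without overlap, and HSC exceeded GMP by 2.08 ± 0.28 SE (adjusted p = 4.75e-06, limma). In L-GMP it lay between 6.29 and 8.10, with replicates 5 and 6 the lowest, and the change from GMP (-0.44) was not called. Zfp1 read 8.84, 8.62, 8.63, 8.27 and 8.60 in HSC and 7.46, 7.84, 7.46 and 7.06 in GMP, with L-GMP between 5.92 and 7.03. It was 2.20-fold higher in HSC than in GMP (log2 change 1.14 ± 0.22, adjusted p = 0.000314, limma), and L-GMP fell by 1.95 ± 0.20 from HSC and by 0.81 ± 0.21 from GMP (adjusted p = 0.00579). Zfp975 was higher in HSC than in GMP by 1.06 ± 0.20 and lower in L-GMP than in GMP (-0.66 ± 0.19). For Zfp1 and Zfp975 the lowest normal mean was in MEP, and CMP against GMP was not called (0.25 and 0.35). The probe sets of Zfp982 and Zfp975 carry the suffix x_at, which the maker gives to sets that can read related sequences, so these values may include close family members.

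Zfp90, a KRAB repressor, was also highest in HSC, at 7.39, 6.99, 7.04, 6.80 and 7.03 against 5.74, 5.66, 6.03 and 5.27 in GMP. Every HSC array lay above the median of 6.75, and every GMP and L-GMP array lay below it. The HSC arrays alone were thus enough for Zfp90 to be tested, so the gene was admitted by the group where it is highest. Over the alternative fits its smallest changes were 0.30 in HSC against GMP and -0.30 in L-GMP against HSC, and both calls held throughout. GMP and L-GMP each had 1 array at the floor, so HSC was at least 2.60-fold above GMP for Zfp90 (adjusted p = 0.000177, limma) and at least 2.25-fold above L-GMP (adjusted p = 0.000217), which lay between 5.27 and 6.64. Zfp292, a large C2H2 protein, was higher in HSC than in GMP by 0.94 ± 0.18 (adjusted p = 0.000335). In all, 7 members had every HSC array above all 11 arrays of CMP, GMP and MEP (6.54%, against 5.50% of all genes): Zfp1, Zfp36l2, Zfp521, Zfp90, Zfp975, Zfp982 and Zfp991. Zfp639 alone had every HSC array below them (0.935% against 4.54%).

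Fewer members ran the other way. Zfp568, a KRAB repressor known from the mouse embryo, read 8.53, 8.80, 8.64 and 8.34 in GMP and 7.30, 7.22, 7.16, 6.91 and 7.13 in HSC. CMP stood at 7.59, 7.59, 7.69 and 6.88, MEP at 7.35, 7.27 and 6.84, and L-GMP between 8.33 and 8.95 with a median of 8.71. GMP and L-GMP arrays lay above every other array. GMP exceeded HSC 2.70-fold (log2 change of HSC against GMP -1.43 ± 0.16 SE, adjusted p = 2.98e-07, limma), L-GMP exceeded HSC 2.91-fold (adjusted p = 9.56e-09), and the change between L-GMP and GMP was 0.11 ± 0.15 (adjusted p = 0.642). Zfp334 was also high in GMP and L-GMP: HSC arrays lay at or near the floor (5.27 to 5.41), GMP arrays between 6.46 and 7.08, and L-GMP arrays between 6.41 and 7.32. CMP stood between, at 6.18, 6.50, 6.21 and 5.84, and overlapped GMP. GMP was at least 2.56-fold above HSC for Zfp334 (adjusted p = 1.46e-06, limma) and L-GMP at least 2.95-fold (adjusted p = 2.07e-08). None of the Zfp334 calls against HSC or MEP held with the floor at the 50th percentile.

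Zfp703, a corepressor gene amplified in some breast cancers, stood higher in GMP than in the other normal sorts and highest in leukaemic cells. Its means in CMP and MEP, 5.67 and 5.70, were close to the 5.62 in HSC. HSC arrays read 5.31, 5.27, 5.43, 5.99 and 6.08, GMP arrays 6.29, 6.81, 6.37 and 6.12, and L-GMP arrays between 6.67 and 7.24. GMP exceeded HSC by 0.78 (log2 change of HSC against GMP -0.78 ± 0.18 SE, adjusted p = 0.00138, limma), and L-GMP exceeded GMP by 0.63 ± 0.17 (adjusted p = 0.00746) with 1 GMP array, replicate 2, inside the L-GMP range. With the floor at the 50th percentile HSC, CMP and MEP each differed from GMP by -0.02, and none of these differences was called. Zfp518b was higher in GMP than in HSC (HSC against GMP -0.79 ± 0.17, adjusted p = 0.000618) and MEP (MEP against GMP -1.07 ± 0.19), and so was Zfp131, a BTB-domain factor, against HSC (-0.81 ± 0.17). Zfp518b, Zfp568 and Zfp703 were the 3 members with every GMP array above the 12 of HSC, CMP and MEP (2.80% against 6.97% of all genes). Zfp346, Zfp36l1, Zfp410, Zfp566 and Zfp982 had every GMP array below them (4.67% against 4.57%). For Zfp346 this holds for 1 of its 2 probe sets: the other was called the opposite way, at -0.53 in HSC against GMP and -1.27 in MEP against GMP, where the set used here gave 0.41 and 0.29.

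Zfp385a, an RNA- and p53-binding protein also called HZF, was high in MEP and CMP, which were not called apart (0.35 ± 0.18 SE, adjusted p = 0.232, limma). MEP arrays read 8.46, 8.16 and 7.93 and CMP arrays 7.58, 7.83, 7.81 and 8.12, above all HSC arrays (6.94 to 7.28) and GMP arrays (7.14, 7.0, 6.93 and 6.66). MEP exceeded GMP 2.38-fold (log2 change 1.25 ± 0.18 SE, adjusted p = 1.57e-05, limma), and L-GMP, at 6.10 to 6.96, lay 3.29-fold below MEP (adjusted p = 3.35e-08). On the lower side, Zfp53 read 7.18, 6.59 and 5.94 in MEP and 7.25, 7.27, 7.42 and 7.25 in GMP (-0.72 ± 0.23, adjusted p = 0.0235). Without replicate 3 of MEP its change was -0.41 and not called. Zfp955b, with -0.71 ± 0.18 in MEP against CMP (adjusted p = 0.00814), was also not called without that array (-0.50). Zfp110 had all 3 MEP arrays above the 13 arrays of HSC, CMP and GMP (0.935% against 4.95% of all genes), and Zfp326, Zfp53, Zfp638, Zfp704 and Zfp991 had them below (4.67% against 6.22%). No member had all CMP arrays above or below the other sorts, as 0.154% and 0.0119% of all genes did.

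**Figure D3:**
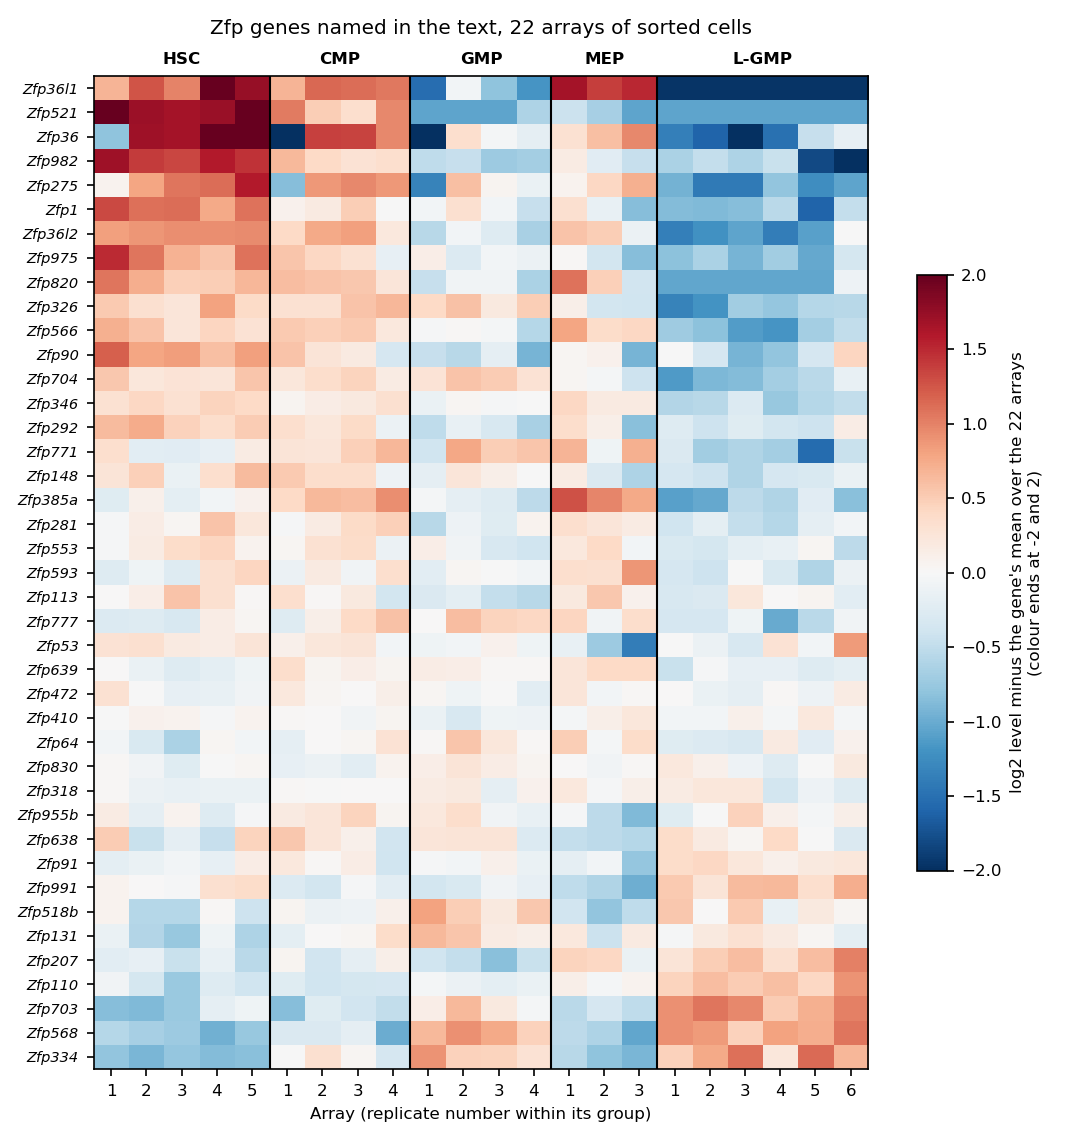
Log2 level of 41 named Zfp genes on 22 arrays of sorted cells, each minus the gene's mean over the arrays. Genes are ordered by HSC mean minus L-GMP mean, so genes high in HSC stand at the top and genes high in L-GMP at the bottom; colours end at -2 and 2, and the first arrays of CMP and GMP stand apart in the rows of Zfp36 and Zfp275.

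At the floor used here, Zfp326 had the largest change between normal and leukaemic GMP. Changes of genes that reach the floor are lower bounds, and over the alternative fits Zfp820 reached -1.59 where Zfp326 reached -1.37. Zfp326 encodes a subunit of the DBIRD complex, which links RNA polymerase II elongation to splicing. GMP arrays read 8.60, 8.79, 8.39 and 8.70, and L-GMP had a lowest value of 6.87, a median of 7.46 and a highest of 7.65. HSC lay between 8.44 and 9.01, CMP between 8.50 and 8.86, and MEP at 8.32, 7.84 and 7.80, so all 6 L-GMP arrays were below all 16 normal arrays. L-GMP was 2.42-fold below GMP (log2 change -1.27 ± 0.16 SE, adjusted p = 2.51e-06, limma), and MEP was below GMP by 0.63 (-0.63 ± 0.19, adjusted p = 0.0149). Zfp704 fell alongside, from 7.66, 7.96, 7.89 and 7.67 in GMP to between 6.25 and 7.24 in L-GMP (-1.12 ± 0.15, adjusted p = 5.30e-06), and Zfp771 from 7.54, 8.71, 8.43 and 8.50 to between 6.40 and 7.64 (-1.07 ± 0.23, adjusted p = 0.00119), with replicate 1 of GMP inside the L-GMP range.

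Zfp346, a protein that binds double-stranded RNA, showed a smaller and tight difference. GMP arrays read 8.73, 8.91, 8.85 and 8.85, and L-GMP between 8.11 and 8.60. Its change from GMP was -0.51 ± 0.09 SE (adjusted p = 0.000108, limma) and from HSC -0.91 ± 0.08 (adjusted p = 5.55e-09). A further probe set of Zfp346 gave 0.52 against HSC and 1.26 against MEP, called in the opposite direction, and -0.01 against GMP, so the direction for the gene depends on the probe set read. The same held for Zfp638 in L-GMP against MEP, where probe sets gave 0.64 and -0.48. Of 27 members with several tested probe sets, 15 had the same sign on all of them in L-GMP against GMP and 21 in L-GMP against HSC.

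Members with every L-GMP array below all 16 normal arrays numbered 5 (4.67%, against 4.94% of all genes): Zfp326, Zfp346 and Zfp36l1, and, named only after their values were seen, Zfp330 and Zfp451. Without Zfp346, whose probe sets disagree, there were 4. Zfp451, a ligase for the modifier SUMO, read 7.29, 7.46, 7.55 and 7.41 in GMP and between 6.85 and 7.07 in L-GMP (-0.46 ± 0.09 SE, adjusted p = 0.000632, limma). Zfp275 was lower in L-GMP than in HSC by 2.07 (log2 change -2.07 ± 0.33, adjusted p = 2.42e-05). It was low on the first CMP (7.23) and GMP (6.74) arrays like Zfp36, against 8.93 to 9.04 and 7.94 to 8.68 on the others. Zfp820 was at the floor on 5 of 6 L-GMP arrays, at least 2.98-fold below HSC (adjusted p = 2.39e-06). With the floor at the 50th percentile its change from HSC was -0.25 and not called. Zfp566 fell from HSC by 1.28 ± 0.14 and from MEP by 1.36 ± 0.16, and Zfp777 fell from GMP by 0.76 ± 0.18 (adjusted p = 0.00276).

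Higher levels in leukaemic cells were fewer. Zfp207, or BuGZ, loads the checkpoint protein BUB3 onto kinetochores. Its levels were 9.04, 8.96, 8.62 and 9.0 in GMP and between 9.70 and 10.46 in L-GMP, while HSC lay between 8.90 and 9.29 and MEP at 9.89, 9.86 and 9.32. L-GMP exceeded GMP 2.13-fold (log2 change 1.09 ± 0.15 SE, adjusted p = 9.39e-06, limma) and HSC by 0.85 ± 0.14 (adjusted p = 3.46e-05), and its difference from MEP, 0.31 ± 0.17, was not called. Of the 4 further probe sets of Zfp207, 3 were tested and gave 1.43 and 0.68, both called, and -0.01, not called, for L-GMP against GMP.

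Zfp110, which encodes a factor that binds the neurotrophin receptor p75, was the 1 member with every L-GMP array above all 16 normal arrays (0.935%, against 5.69% of all genes). GMP arrays read 8.61, 8.54, 8.45 and 8.51, MEP 8.77, 8.61 and 8.72, HSC between 7.90 and 8.58, and CMP between 8.25 and 8.41. L-GMP had a lowest value of 9.07, a median of 9.20 and a highest of 9.55. The change was 0.70 ± 0.11 SE from GMP (adjusted p = 3.41e-05, limma) and 0.95 ± 0.10 from HSC (adjusted p = 9.73e-08), and of its 2 other probe sets the 1 tested gave 0.60 and 0.86, both called. Its probe set too has the suffix x_at. Zfp991 was 1.68-fold higher in L-GMP than in GMP (0.74 ± 0.12, adjusted p = 4.65e-05) and 2.32-fold higher than in MEP (adjusted p = 9.35e-08).

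**Figure D4:**
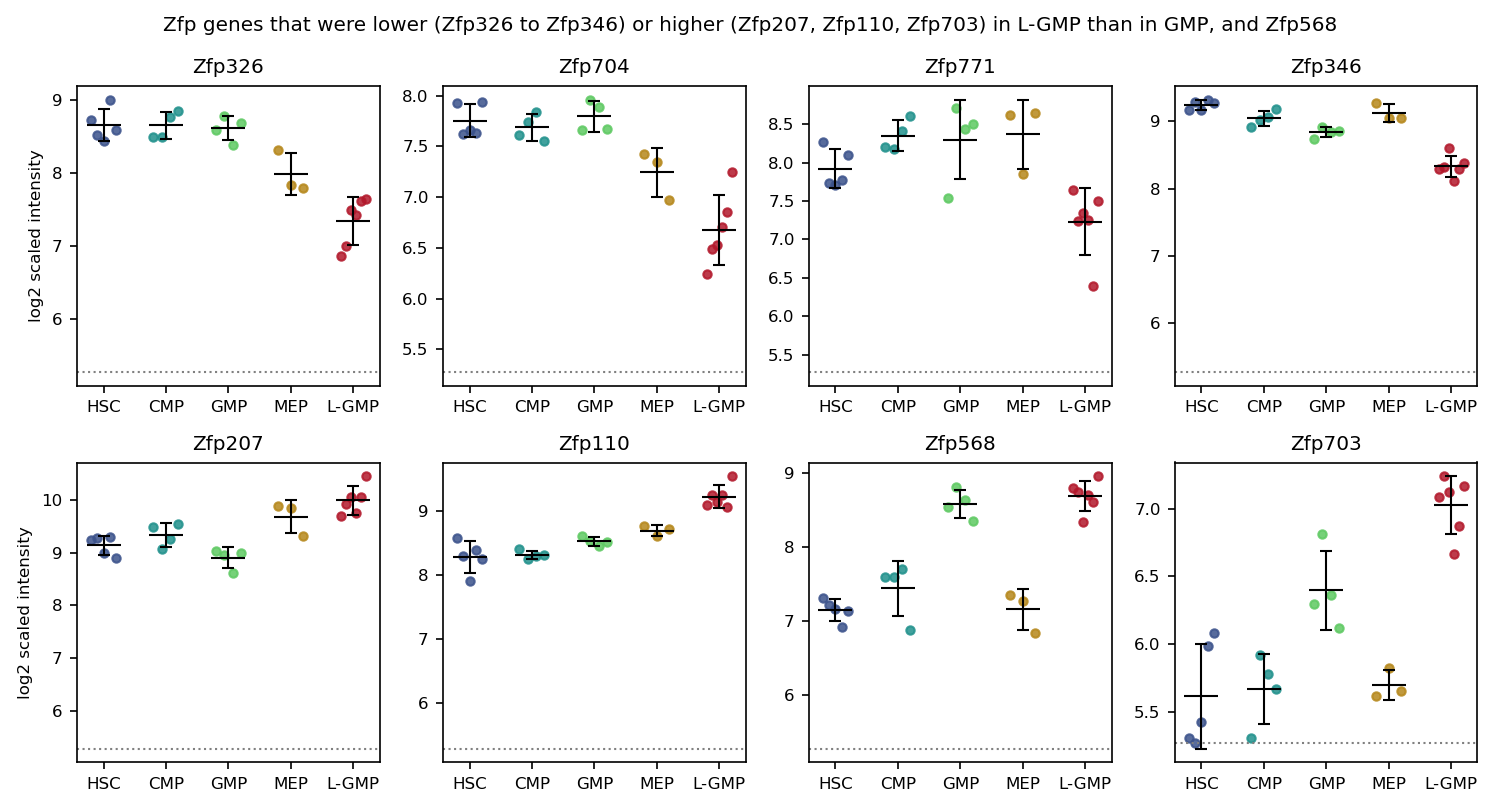
Log2 scaled intensity of 8 Zfp genes on each array of sorted cells; points are arrays, bars the mean and SD, the dotted line the floor of 5.27, and each panel has its own vertical scale. Zfp326 on L-GMP arrays lies between 6.87 and 7.65, below all normal arrays, Zfp110 lies between 9.07 and 9.55, above them, and Zfp568 is high in GMP and L-GMP alike.

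Other regulators with known roles changed less. Zfp148, which binds GC-rich promoters, and Zfp281, a pluripotency factor of the same family, were lower in L-GMP than in HSC (-0.67 ± 0.15 and -0.50 ± 0.13 SE, adjusted p = 0.0007 and 0.00278, limma), and neither was called against GMP (-0.40 and -0.10). Of 3 further probe sets of Zfp148, 2 were tested and gave -0.04, not called, and -0.72, called, against HSC. The other probe set of Zfp281 gave -0.05 against HSC, not called. Zfp91, a ubiquitin ligase, was higher in L-GMP than in HSC (0.34 ± 0.12, adjusted p = 0.0291) and MEP (0.59 ± 0.14). Of its 2 further probe sets the 1 tested gave 0.01 and 0.04 there, not called, and 0.41 against GMP, called. Zfp318, a splicing regulator of B cells, was called in none of the 10 sorted comparisons, with changes between -0.20 and 0.09. Zfp113 was higher in MEP than in GMP (0.65 ± 0.17). The members with the smallest range over the 22 arrays were Zfp410, an activator of Chd4 (7.67 to 8.22), Zfp472 (8.07 to 8.58) and Zfp830, a splicing factor (8.06 to 8.57).

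The partners of KRAB repression, such as Trim28 and Setdb1, were counted beside the members. Of 13 tested, 2 were higher and 3 lower in L-GMP against GMP (median -0.19), and 1 was higher and 3 lower against HSC (median -0.06). Of all genes, 33.5% were called against GMP and 47.2% against HSC, and the list was given no set test.

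In the transduced cells, no Zfp gene was called between MLL-AF9 and GFP. Of 90 members 0 were called by limma, against 0.0276% of all genes (0.0138% higher and 0.0138% lower). Without adjustment, 9 passed a p of 0.05, against 10.2% of all genes. The largest negative changes were in CCCH genes. Zfp36 read 10.04, 8.99 and 9.73 on the GFP arrays and 8.01, 8.52 and 8.0 on the MLL-AF9 arrays, and Zfp36l1 read 10.12, 8.67 and 9.17 against 7.86, 8.03 and 7.98. Neither overlapped between the groups. The log2 changes were -1.41 ± 0.29 SE for Zfp36 and -1.36 ± 0.34 for Zfp36l1 (adjusted p = 0.323 and 0.382, limma), and blocking on the pair gave adjusted p values of 0.0844 and 0.0899. Zfp36l2 stood at 10.19, 10.94 and 10.97 in GFP and 10.21, 11.23 and 11.19 in MLL-AF9, a change of 0.18 ± 0.33. The mean of 14 immediate early genes was between 9.48 and 10.27 in GFP and between 8.70 and 9.38 in MLL-AF9, and that of 4 macrophage markers between 10.47 and 11.15 and between 9.21 and 10.11. In the same groups 6 neutrophil markers averaged 11.79 and 10.67, and the 3 tested of 8 HSC markers 7.82 and 8.95. Of these, Meis1, also listed as a marker of leukaemia with an MLL fusion, averaged 7.09 and 9.90. Hlf averaged 8.20 and 8.52, and Slamf1 8.18 and 8.43. The part of these lists in the values was not tested.

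Zfp385a was the 1 member called with the replicate block. It read 9.15, 8.02 and 7.98 in GFP and 8.33, 7.39 and 7.40 in MLL-AF9, so the MLL-AF9 array was the lower of each pair and the first pair stood above the others (-0.68, adjusted p = 0.0478 with the block, limma). In that blocked fit 1.74% of all genes were called, 1.53% lower. Zfp593, which acts in ribosome assembly, read 7.02, 7.87 and 7.86 in GFP and 8.56, 8.38 and 8.52 in MLL-AF9, the largest positive change (0.91 ± 0.24 SE, adjusted p = 0.382, limma). Zfp553 and Zfp64 also did not overlap between the groups (0.42 ± 0.14 and 0.37 ± 0.12), and none of the 3 was called. The other probe set of Zfp64 gave -0.003 ± 0.20. In all, 9 of the 90 members did not overlap between the groups, and the share over all genes is not given here. Of the 90 members, 62 (68.9%) lay above 0 against 53.4% of all genes.

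**Figure D5:**
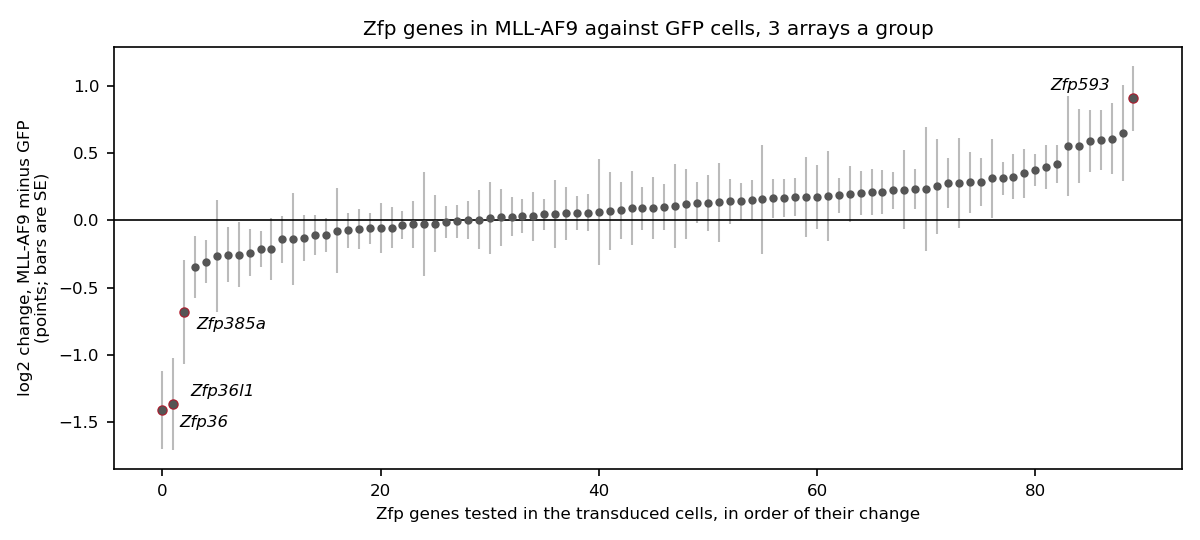
Log2 change of each of 90 Zfp genes in MLL-AF9 against GFP cells, in order of size; points are the limma estimate and bars its SE from 3 against 3 arrays. Zfp36 (-1.41) and Zfp36l1 (-1.36) stand apart at the low end and Zfp593 (0.91) lies at the high end; none was called.

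Set beside L-GMP against GMP, whose arrays are separate, 33 of the 86 members tested in both (38.4%) had the same sign in MLL-AF9 against GFP, and so did 38.2% of all genes. Zfp36l1 changed by -1.36 in MLL-AF9 against GFP, Zfp326 by 0.31 and Zfp110 by -0.06, none of them called, and the difference between the experiments was not tested.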

How the data were processed

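Expression was measured on 28 one-colour arrays of 22690 probe sets. The deposited values are linear MAS5 signal intensity, made by the authors per the submitters' processing notes, with no version given. Each array was scaled to the common mean after trimming 2% at each end (factors 0.982 to 1.04 for transduced and 0.923 to 1.12 for sorted cells), values under the 25th percentile were set to it, and log2 was taken. The 64 control probe sets were left out. Probe sets naming 1 gene and above the experiment's median on at least 3 arrays were kept, with the highest mean representing a gene; 61.8% of members passed in sorted cells, against 68.0% of all genes, and 52.0% against 58.4% in transduced cells. Groups were compared with limma 3.58.1 in R 4.3.3 (two-sided, moderated, all groups of an experiment in 1 fit), with Benjamini-Hochberg adjustment over all genes, called under 0.05. The fit was tested on simulated data. Arrays carry no read depth, so their number limits the precision.

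Members and lists were chosen with earlier results of these data known. The text names up to 5 called members per direction and comparison with the largest change and no overlap between arrays, the 5 smallest p and any blocked call in transduced cells, 11 tested members with known roles, members with opposite probe sets and the 3 of smallest range, 41 genes by this rule, and Zfp330 and Zfp451 besides. In transduced cells, same-numbered arrays deviated together in 3 of 3 pairs (r from 0.379 to 0.596), so the number was taken as a pair and the blocked fit is given where it changes a call. The labels name no shared batch or animal, and correlations of arrays with different numbers are not given. The pairing, and the blocked call of Zfp385a, therefore rest on these same values. Alternatives changed the scaling, floor, filter, normalization, arrays, covariate and block. Promoter windows come from RefSeq, and protein sequences were not used here.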

Additional observations from a re-analysis of the deposited data

Results flagged for a closer look

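Of 162 groups of 4 to 6 arrays over 41 named members, 16 (9.88%) held an array whose level lay far from the others of its group. Chance gives about 1 in 20 for independent normal values. Here levels end at the floor and genes share arrays, so the 9.88% cannot be judged against it. Zfp521 in GMP and Zfp820 in L-GMP were flagged because all other arrays of the group were at the floor. All values are log2 levels, and no cause was tested. Zfp36 was lowest on replicate 1 of HSC (8.48), CMP (6.23) and GMP (6.22), and Zfp275 on replicate 1 of CMP (7.23), the arrays where immediate early genes were also low. Zfp318 was highest on replicate 1 of HSC (8.83).

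On replicate 4 of GMP, Zfp566 (6.44) and Zfp638 (8.04) were lowest and Zfp521 (5.70) was highest, being the 1 GMP array above the floor. On replicate 4 of CMP, Zfp566 (7.22) and Zfp568 (6.88) were lowest. Zfp53 was highest on replicate 3 of GMP (7.42). Among leukaemic arrays, replicate 6 was highest for Zfp36l2 (10.35), Zfp292 (9.0) and Zfp820 (6.21), and replicate 5 was lowest for Zfp1 (5.92) and Zfp771 (6.40).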

How the results depend on the processing

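Of 242 recomputed counts of called members, 221 stayed within 1.5 times the main count and 21 did not. Of 2289 recomputed changes of named genes, 2149 kept their side of the threshold, 126 lost the call and 14 gained it. In 0 did the sign change where either fit called the gene. A change of sign where neither fit called the gene was counted among the 2149. The moved counts were in 4 comparisons. CMP against GMP (14 members) gave 9 with no further scaling, 8 without the first arrays of HSC, CMP and GMP, and 7 to 16 with 1 replicate left out. MEP against CMP (11) gave 7 with the 3' to 5' ratio as a covariate, 5 with only the arrays of the groups compared, 17 with the replicate block, and 2 to 15 with 1 replicate left out. MEP against GMP (22) gave 14 with only the arrays of the groups compared, 14 without the first arrays, and 14 to 21 with 1 replicate left out. MLL-AF9 against GFP (0) gave 1 with the replicate block, and, in alternatives chosen after seeing the data, 1 with pair 1 and 2 with pair 3 left out of the blocked fit. In these counts the causes were not tested beyond the fewer arrays of some fits. The share of all genes called in the same fits is not given beside them. Replicate numbers of sorted cells did not pair the arrays (18 of 37 correlations over 0.1, from -0.493 to 0.528). Levels at the floor limit Zfp36l1, Zfp521, Zfp334, Zfp703, Zfp90 and Zfp820.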

Other observations

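Zfp genes often lie side by side in the genome. By gene order in RefSeq, 87 members stood beside another Zfp gene and 84 did not, and 47 (54.0%) and 60 (71.4%) of them were tested in sorted cells. Other zinc finger families were counted in the same fits. Of 15 Zbtb genes tested, 4 were higher and 4 lower in L-GMP against HSC, and 2 higher and 1 lower against GMP. Of 3 Zkscan genes, 0 were higher and 1 lower in each, and of 4 Zscan genes, 0 were higher and 2 lower against HSC and none was called against GMP. In those fits 47.2% of all genes were called against HSC and 33.5% against GMP.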
